A study of Mus musculus with 8 samples.

Results

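The Cyp4a genes encode cytochrome P450 enzymes that add a hydroxyl group to the terminal (omega) carbon of fatty acids. Their expression was read in mouse livers that carried or lacked a functional RORα gene in hepatocytes, on a control or a high-fat diet. The 6 genes described here, Cyp4a10, Cyp4a12a, Cyp4a12b, Cyp4a14, Cyp4a31 and Cyp4a32, were taken by symbol from the 38283 genes of the expression table, and all 6 were among the 11634 genes that passed the expression filter (FPKM above 1 in at least 1 library). FPKM counts the sequenced fragments of a gene scaled by the length of its transcript and by the number of mapped fragments, so that levels of different genes are compared per length.

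The mice were C57BL/6 males. Both genotypes had Rora alleles whose exons 4 and 5 were flanked by loxP sites. RORα f/f mice had these alleles only, and RORα LKO mice also had the Alb-cre transgene, in which the albumin promoter drives Cre recombinase, so that the exons are deleted in hepatocytes and Rora is left in the other cells of the liver. From 8 weeks of age they were fed a control diet (CD) or a high-fat diet (HFD) for 10 weeks. The livers of 2 mice were pooled for each library, and each of the 4 groups (f/f on CD, LKO on CD, f/f on HFD, LKO on HFD) has 2 libraries, 8 in all, from 4 mice a group. The spread given below is therefore that between 2 pools, and an SD rests on 1 difference.

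Omega-hydroxylation is a side route of fatty acid breakdown in liver and kidney. The hydroxylated acid is oxidised further by alcohol and aldehyde dehydrogenases to a dicarboxylic acid, which is shortened in peroxisomes. Cyp4a10 and Cyp4a14 are classical targets of PPARα, the nuclear receptor that senses fatty acids in hepatocytes, whereas Cyp4a12a is known as the male-predominant form and as the main enzyme that omega-hydroxylates arachidonic acid in mice.

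The libraries had 10587 to 10706 genes above 1 FPKM. The second f/f library on CD stood apart, with a summed FPKM of 983738 against 732622 to 806782 in the others and 18.7% of it in 1 gene, ENSMUSG00000093077. Fewer Cyp4a genes passed for each diet comparison without this library. The same was so without the first f/f library on CD or the first f/f library on HFD, so the loss is not particular to it. Rora as a whole gene did not separate the genotypes on HFD, where it read 7.56 to 7.86 FPKM in the f/f libraries and 7.30 to 8.02 FPKM in the LKO libraries (log2 fold change 0.01 ± 0.07 SE, limma adjusted p = 0.97). On CD it read 8.59 to 8.85 FPKM in f/f and 7.96 to 8.18 FPKM in LKO (-0.10 ± 0.07 SE, adjusted p = 0.61). This value sums all exons and not the deleted exons alone, so it cannot check the labels, and genotype is written as labelled. Of 10 hepatocyte markers, 10 were above 1 FPKM, but Alb (albumin) was listed at 0 in 4 libraries and at 29902 to 30888 FPKM in the other 4. An exact 0 in this table can thus be a failed estimate, and 71 genes were at 0 in at least 1 library while above 100 FPKM in another. None of the 6 Cyp4a genes was listed at 0 in any library. Of 7 markers of kidney proximal tubule, another site of Cyp4a expression, 0 were above 1 FPKM, their summed level was at most 0.154 FPKM, and Slc22a6, Slc5a2 and Kap were at 0 in all 8 libraries.

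All 6 genes lie in 1 cluster on mouse chromosome 4 (GRCm38, GENCODE M21). In order they are Cyp4a12a (ENSMUSG00000066071, chr4:115299046-115332815), Cyp4a12b (ENSMUSG00000078597, chr4:115411624-115439034), Cyp4a14 (ENSMUSG00000028715, chr4:115486200-115496142), Cyp4a10 (ENSMUSG00000066072, chr4:115518264-115533649), Cyp4a31 (ENSMUSG00000028712, chr4:115563649-115579015) and Cyp4a32 (ENSMUSG00000063929, chr4:115600969-115621602). Cyp4a14 is read from the minus strand and the other 5 from the plus strand. The genes and pseudogenes around and between them, Cyp4x1, Cyp4a28-ps, Cyp4a29-ps1, Cyp4a29, Cyp4a30-ps and Cyp4a30b, read at most 0.0476 FPKM in any library and were listed at 0 in 6 to 8 of the 8 libraries. Cyp4b1, at the far end of the cluster, was at 4.48 to 6.70 FPKM.

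The 6 coding sequences fall into 3 kinds, which matters for how their reads can be told apart. Cyp4a10, Cyp4a31 and Cyp4a32 share 96% to 97.2% of their 1527 coding bases, and Cyp4a12a and Cyp4a12b share 98.5% of theirs, with 23 differences in 1524 bases. Cyp4a14 stands alone, with 75.1% to 75.9% identity to each of the others. The codons of the heme-binding signature, the stretch around the cysteine that holds the heme iron in every P450 enzyme, show the same 3 kinds. The 60 coding bases that hold these codons with 15 bases on either side lie in exons 11 and 12 of each gene and are given from the GENCODE M21 transcripts, with bases that differ from Cyp4a10 in capitals.
Cyp4a10: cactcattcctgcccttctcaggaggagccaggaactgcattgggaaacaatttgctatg
Cyp4a12a: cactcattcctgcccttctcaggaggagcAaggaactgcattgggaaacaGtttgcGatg
Cyp4a14: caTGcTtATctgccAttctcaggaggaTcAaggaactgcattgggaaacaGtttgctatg
Cyp4a31 and Cyp4a32 are identical to Cyp4a10 over these bases, and Cyp4a12b is identical to Cyp4a12a. Counting from 1 at the 5′ end, Cyp4a12a and Cyp4a12b carry C30A, A51G and T57G relative to Cyp4a10. Cyp4a14 carries 9 substitutions, of which C30A and A51G are also found in Cyp4a12a. The bases span an intron, at chr4:115529487-115532558 for Cyp4a10, chr4:115328971-115331861 for Cyp4a12a and chr4:115487284-115489820 (minus strand) for Cyp4a14.

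**Figure D1:**
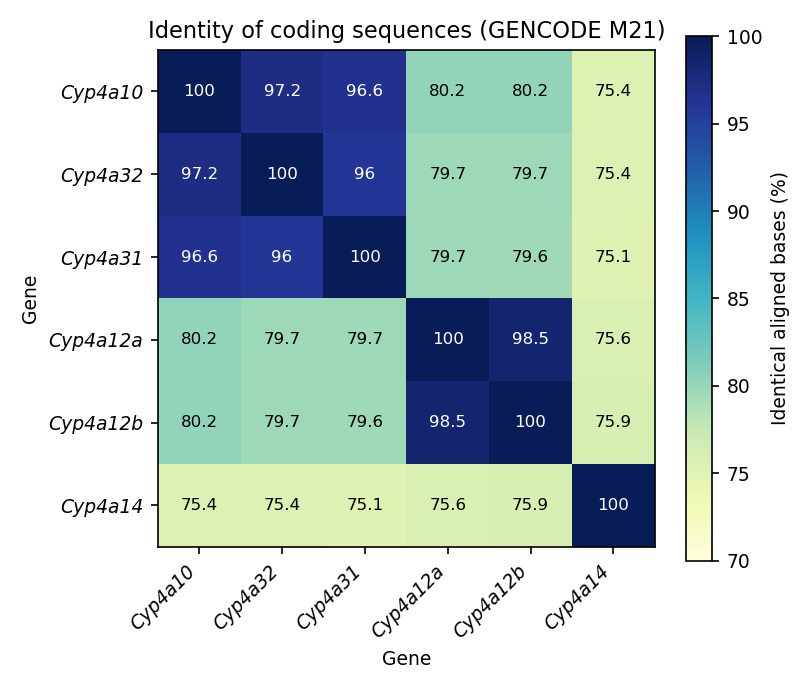
Identity of the coding sequences of each pair of Cyp4a genes, as the percent of aligned bases that are the same, on a colour scale from 70 to 100%. Cyp4a10, Cyp4a32 and Cyp4a31 form 1 block at 96% or more, Cyp4a12a and Cyp4a12b another at 98.5%, and Cyp4a14 is at 75.1% to 75.9% to all others.

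Close copies share unbroken coding runs of up to 342 bases (Cyp4a12a with Cyp4a12b) and 211 bases (Cyp4a31 with Cyp4a32). A short read from such a run can match more than 1 of them. The 60-base coding windows with the most differing positions are given here, 1 for each set of close copies, with the differing positions in capitals. For the Cyp4a10 set the window lies in exon 2 (chr4:115519640-115519699, chr4:115565020-115565079 and chr4:115602270-115602329) and holds 9 of the 77 positions at which the 3 genes are not all the same.
Cyp4a10: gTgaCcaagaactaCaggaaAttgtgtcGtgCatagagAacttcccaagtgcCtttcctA
Cyp4a31: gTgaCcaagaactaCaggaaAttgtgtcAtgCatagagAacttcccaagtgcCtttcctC
Cyp4a32: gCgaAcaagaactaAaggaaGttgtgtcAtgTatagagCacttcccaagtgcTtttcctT
In it Cyp4a31 carries G29A and A60C relative to Cyp4a10, and Cyp4a32 differs from Cyp4a10 at all 9 positions. For the Cyp4a12 pair the window joins exons 5 and 6 (chr4:115326309-115326681 and chr4:115432561-115432934) and holds 4 of the 23 differences, G47A, G53T, T59C and C60T.
Cyp4a12a: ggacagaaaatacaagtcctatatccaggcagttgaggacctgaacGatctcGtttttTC
Cyp4a12b: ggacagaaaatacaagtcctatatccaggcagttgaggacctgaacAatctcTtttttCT
Of all 50-base stretches of coding sequence, 54.8% in Cyp4a12a and in Cyp4a12b, 46.7% in Cyp4a32, 40.5% in Cyp4a10 and 31.6% in Cyp4a31 occur letter for letter in another of the 6 genes, against 0% in Cyp4a14. Cufflinks divides fragments that fit several genes, so the separate values of Cyp4a10, Cyp4a31 and Cyp4a32, and of Cyp4a12a and Cyp4a12b, are uncertain, and sums over each set are given beside the main results. The annotated transcript of Cyp4a32 has 1530 bases, hardly more than its coding part, against 2109 to 2509 bases for the transcripts of the other 5, which also enters the level per length.

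The first question was how much of each enzyme's mRNA these livers held. On CD the order was the same in all 4 libraries, with Cyp4a10 highest, then Cyp4a14, Cyp4a12a, Cyp4a12b, Cyp4a32 and Cyp4a31. In f/f livers on CD the levels were 315 ± 36.7 FPKM (SD, n = 2) for Cyp4a10, 148 ± 12.1 for Cyp4a14, 130 ± 11.0 for Cyp4a12a, 55.4 ± 1.01 for Cyp4a12b, 27.6 ± 3.46 for Cyp4a32 and 10.6 ± 0.766 for Cyp4a31, and no neighbours in this order overlapped between libraries. On HFD the order changed in all 4 libraries to Cyp4a14, Cyp4a10, Cyp4a12a, Cyp4a32, Cyp4a12b and Cyp4a31. Neighbours whose libraries overlapped, so that their order within the group is not beyond the spread, were Cyp4a10 with Cyp4a14, Cyp4a14 with Cyp4a12a and Cyp4a12b with Cyp4a32 in LKO livers on CD, and Cyp4a32 with Cyp4a12b in f/f livers on HFD.

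**Figure D2:**
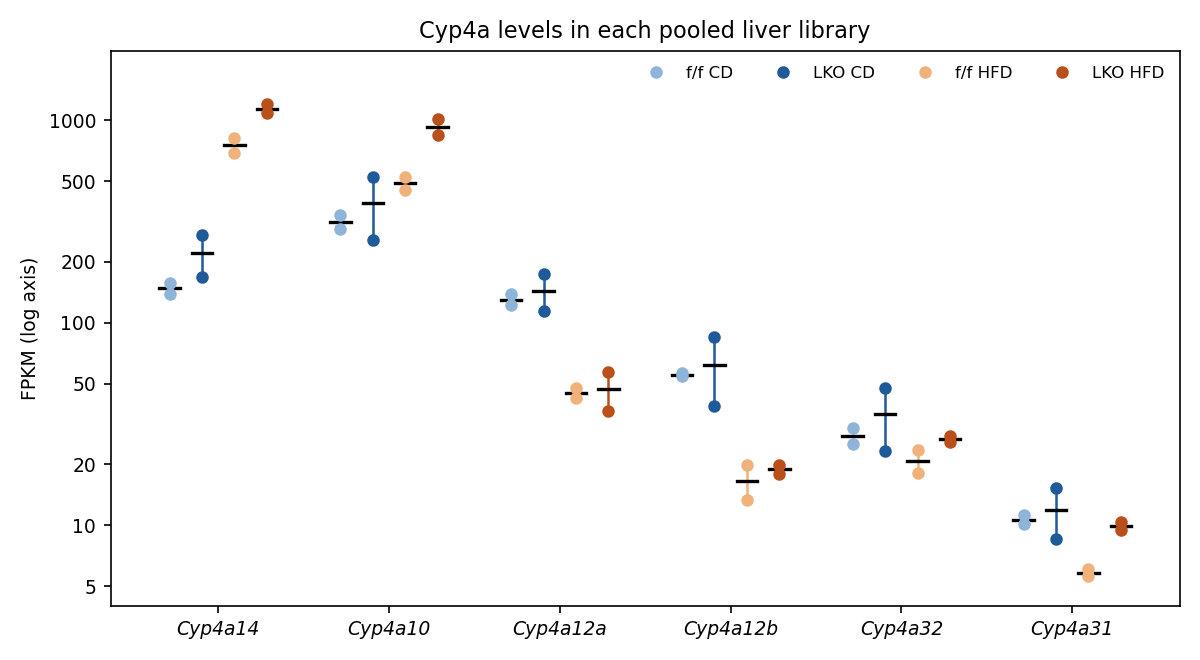
FPKM of each Cyp4a gene in each of the 8 pooled liver libraries on a log axis. Points are libraries, a line joins the 2 libraries of a group, and the black bar is their mean. Cyp4a14 rises from 139 to 272 FPKM on CD to 685 to 1194 on HFD, while Cyp4a12a falls from 114 to 173 to 36.5 to 57.2.

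The second question was what HFD did to each gene. Averaged over the genotypes, HFD raised Cyp4a14 and Cyp4a10, lowered Cyp4a12a and Cyp4a12b, and left no change past the threshold in Cyp4a31 and Cyp4a32. Of the 6 genes, 2 rose and 2 fell at an adjusted p under 0.05 (limma, two-sided, Benjamini-Hochberg over all genes tested), against 9.89% of all genes in either direction, 5.04% higher and 4.86% lower. The libraries of the 2 diets did not overlap for Cyp4a14, Cyp4a12a and Cyp4a12b, that is, 3 of 6 genes against 16.5% of all genes. Fold changes are on the log2(FPKM + 1) scale.

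Cyp4a14 had the largest change of the 6. It read 139 and 156 FPKM in the f/f libraries on CD, 167 and 272 in the LKO libraries on CD, 817 and 685 in f/f on HFD, and 1079 and 1194 in LKO on HFD. The lowest HFD library was thus well above the highest CD library. Averaged over the genotypes its log2 fold change was 2.50 ± 0.14 SE, or 5.65-fold, with an adjusted p of 0.00075. Within the genotypes it was 2.42 ± 0.20 SE in f/f (adjusted p = 0.0083) and 2.58 ± 0.20 SE in LKO (adjusted p = 0.0091), and their difference was 0.16 ± 0.28 SE (adjusted p = 0.89). The call in f/f was lost without either f/f library on CD or without the first f/f library on HFD (adjusted p of 0.06 to 0.061), and the call in LKO without the second LKO library on HFD (adjusted p = 0.053), while the averaged call held with any library left out.

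Cyp4a10, the most abundant of the 6 on CD, rose less. It read 289 and 341 FPKM in f/f on CD, 257 and 524 in LKO on CD, 453 and 521 in f/f on HFD, and 843 and 1014 in LKO on HFD. The second LKO library on CD overlapped the f/f libraries on HFD. The averaged log2 fold change was 1.12 ± 0.22 SE, or 2.18-fold (adjusted p = 0.028), but this call was lost when any 1 of 6 of the 8 libraries was left out (adjusted p of 0.08 to 0.099, log2 fold changes of 0.852 to 1.40 over all 8). It held without the first and without the second LKO library on CD. Within a genotype it did not pass, at 0.76 ± 0.31 SE in f/f (adjusted p = 0.25) and 1.49 ± 0.31 SE in LKO (adjusted p = 0.058). The LKO value passed with the replicate number as a block (adjusted p = 0.044), with a pseudocount of 0.1 (0.049), with only genes above 1 FPKM in all libraries (0.026), and without the second LKO library on CD (0.02, log2 fold change 2.02).

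Cyp4a12a moved the other way. It read 138 and 122 FPKM in f/f on CD, 114 and 173 in LKO on CD, 47.8 and 42.5 in f/f on HFD, and 36.5 and 57.2 in LKO on HFD, so that all 4 HFD libraries were below all 4 CD libraries. Averaged over the genotypes it fell by 1.49 on the log2 scale (SE 0.17, adjusted p = 0.0069), a level 2.81-fold lower. In f/f it fell by 1.45 (SE 0.25), with an adjusted p of 0.05002, just outside the threshold, and in LKO by 1.53 (SE 0.25, adjusted p = 0.032). The LKO call was lost when any 1 of the 8 libraries was left out (adjusted p of 0.061 to 0.14), while the averaged call held in all 8 such fits (adjusted p of 0.013 to 0.036).

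Cyp4a12b, its near-identical neighbour, read 56.1 and 54.7 FPKM in f/f on CD, 38.8 and 84.5 in LKO on CD, 13.3 and 19.7 in f/f on HFD, and 19.9 and 17.9 in LKO on HFD. All 4 HFD libraries were below all 4 CD libraries. It fell by 1.59 on the log2 scale (SE 0.23, adjusted p = 0.012), a level 3.01-fold lower, and the call was lost without the second f/f library on CD or without the second LKO library on HFD (adjusted p = 0.056 for each). Within f/f the value was -1.67 ± 0.33 SE (adjusted p = 0.066) and within LKO -1.51 ± 0.33 SE (adjusted p = 0.061).

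Cyp4a31 and Cyp4a32, the low copies next to Cyp4a10, had values below 0 for the same comparison. Cyp4a32 read 25.1 and 30.0 FPKM in f/f on CD, 23.3 and 47.8 in LKO on CD, 18.0 and 23.6 in f/f on HFD, and 25.6 and 27.6 in LKO on HFD. Cyp4a31 read 11.2 and 10.1, 8.51 and 15.2, 6.06 and 5.58, and 10.4 and 9.46 FPKM in the same order. For both, the CD and HFD libraries overlapped. The averaged log2 fold changes were -0.33 ± 0.21 SE for Cyp4a32 (adjusted p = 0.36) and -0.45 ± 0.16 SE for Cyp4a31 (adjusted p = 0.13). Without the first LKO library on CD, Cyp4a31 passed, with -0.64 and an adjusted p of 0.016.

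With the FPKM of close copies summed, the called directions were unchanged for both sums. The sum of Cyp4a10, Cyp4a31 and Cyp4a32 rose by 0.99 ± 0.23 SE on HFD averaged over the genotypes (adjusted p = 0.041), and the sum of Cyp4a12a and Cyp4a12b fell by 1.52 (SE 0.16, adjusted p = 0.0057). The Cyp4a12 sum also passed within each genotype, falling by 1.54 in f/f (adjusted p = 0.037) and by 1.50 in LKO (adjusted p = 0.028).

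Within f/f alone, 1 of the 6 genes rose, against 0.627% of all genes, and 0 fell, against 0.705% (1.33% in either direction). With limma, 2 genes were higher and 3 lower in f/f at an unadjusted p under 0.05, against 9.94% and 9.22% of all genes. Within LKO alone, 1 rose, against 1.57% of all genes, and 1 fell, against 1.44% (3.02% in either direction). When only the 4 libraries of a genotype were fitted, 0 of the 6 passed in f/f and 0 in LKO, with adjusted p of 0.068 and 0.11 for Cyp4a14, while 5 of 6 in f/f and 4 of 6 in LKO had an unadjusted p under 0.05, against 17.1% and 20% of all genes. Those fits had 2 libraries a group to set the spread and called 5 and 0 of all 11634 genes (0.043% and 0%).

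**Figure D3:**
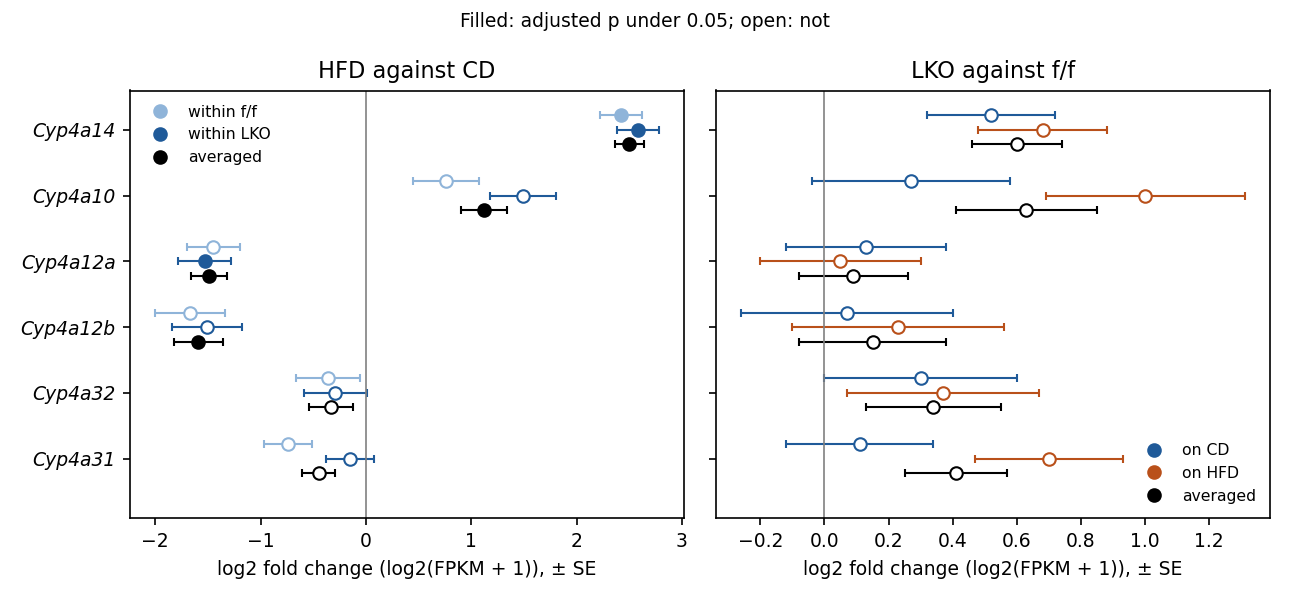
Log2 fold changes of the 6 Cyp4a genes with their standard errors, for HFD against CD (left) and LKO against f/f (right), each within a group and averaged. Filled points passed an adjusted p of 0.05, which 4 of 6 genes did for diet averaged over the genotypes and 0 of 6 did for any genotype comparison, although all 6 genotype values on HFD lie above 0.

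The opposite moves changed the make-up of the family. The summed Cyp4a level was 609 to 1116 FPKM on CD and 1298 to 2320 FPKM on HFD, and it was higher in every HFD library than in any CD library. Cyp4a14 was 21.2% to 27.4% of this sum on CD and 51.5% to 60.3% on HFD. Cyp4a12a was 15.5% to 20.9% on CD and 1.81% to 3.52% on HFD. Cyp4a10 kept a large share on both, 42.3% to 47.7% on CD and 33.4% to 43.7% on HFD.

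Ratios within a library, in which any scaling of the library cancels, show the same. Cyp4a14 stood at 1.01 to 1.57 times Cyp4a12a on CD and at 16.1 to 29.6 times on HFD. Cyp4a14 was 0.459 to 0.649 times Cyp4a10 on CD and 1.18 to 1.80 times on HFD. The ratio of Cyp4a10 to its close copy Cyp4a32 was nearly the same in the 4 CD libraries, 11.0 to 11.5, and was 22.1 to 36.7 on HFD. These ratios are given as descriptions, with no test.

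**Figure D4:**
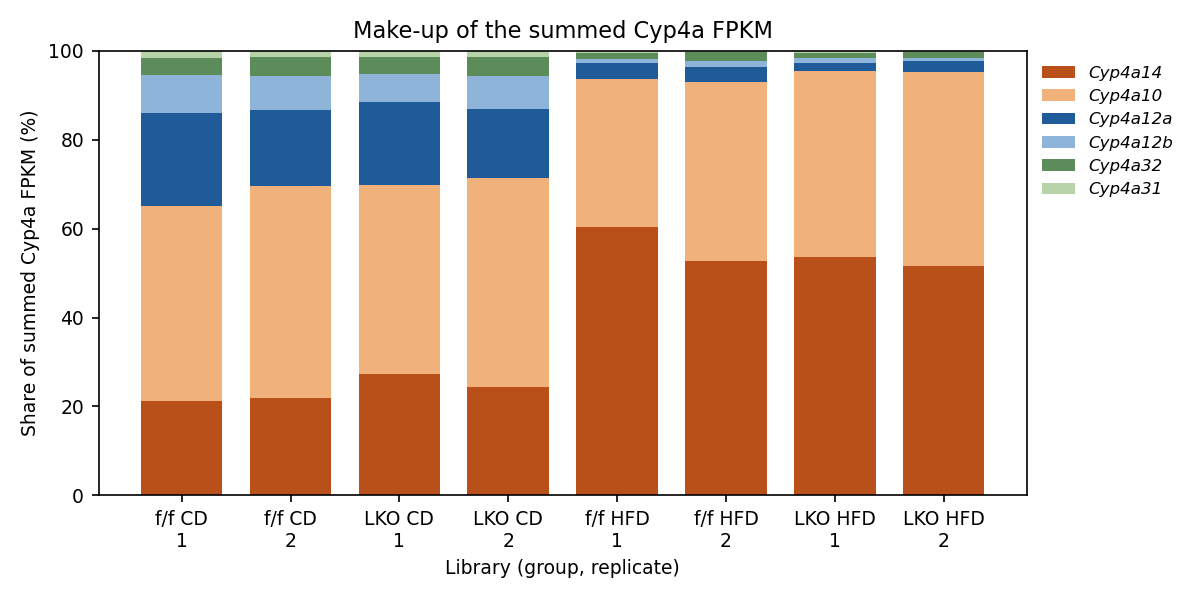
Share of each Cyp4a gene in the summed Cyp4a FPKM of each library, in percent, with bars stacked to 100%. Cyp4a14 goes from 21.2% to 27.4% on CD to over 51% on HFD, and the 2 Cyp4a12 genes shrink to a few percent.

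The third question was whether loss of RORα in hepatocytes altered these genes. On HFD all 6 had higher means in the LKO-labelled than in the f/f-labelled libraries, and none passed the test across all genes. The number called was 0 of 6, against 0.043% of all genes (5 of 11634). At an unadjusted p under 0.05, 3 of the 6 were higher, against 5.46% of all genes. The LKO and f/f libraries did not overlap for 4 of the 6, against 19.1% of all genes that were higher without overlap. The median log2 fold change of the 6 was 0.53, and that of all genes tested was -0.001.

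Cyp4a10 had the highest value, with 843 and 1014 FPKM in LKO on HFD against 453 and 521 in f/f (log2 fold change 1.00 ± 0.31 SE, adjusted p = 0.37). Cyp4a31, at 10.4 and 9.46 against 6.06 and 5.58 FPKM, had 0.70 ± 0.23 SE (adjusted p = 0.39). Cyp4a14, at 1079 and 1194 against 817 and 685 FPKM, had 0.68 ± 0.20 SE (adjusted p = 0.34). In each of these 3 genes both LKO libraries were above both f/f libraries, and the value stayed positive with any library left out, at 0.907 to 1.10 for Cyp4a10, 0.577 to 0.795 for Cyp4a14 and 0.627 to 0.773 for Cyp4a31. Cyp4a32 was also separated, but by little (25.6 and 27.6 against 18.0 and 23.6 FPKM, 0.37 ± 0.30 SE, adjusted p = 0.74). Cyp4a12a and Cyp4a12b overlapped between the genotypes, at 0.05 ± 0.25 SE (adjusted p = 0.97) and 0.23 ± 0.33 SE (adjusted p = 0.86). The sum of Cyp4a10, Cyp4a31 and Cyp4a32 had 0.99 ± 0.32 SE (adjusted p = 0.38).

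On CD all 6 means were higher in LKO, by 0.07 to 0.52 on the log2 scale, and 0 of 6 passed, against 0.0172% of all genes (2 of 11634). Cyp4a14 was 1 of 6 with an unadjusted p under 0.05 and a higher level, against 6.15% of all genes, and 1 of 6 without overlap, against 20.8%. It had 0.52 ± 0.20 SE (adjusted p = 0.36). The second LKO library on CD read 1.52 to 2.18 times the first for all 6 genes, with 10636 and 10694 genes above 1 FPKM. Without it, 5 of the 6 genotype values turned negative, at -0.26 for Cyp4a10, -0.16 for Cyp4a12a, -0.45 for Cyp4a12b, -0.18 for Cyp4a32 and -0.28 for Cyp4a31, while that of Cyp4a14 stayed positive at 0.208, the lowest of its 8 such fits.

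Whether the genotype values differed between the diets was tested by the interaction. None of the 6 passed, against 0.0344% of all genes (4 of 11634), the lowest adjusted p was 0.66 (Cyp4a31, 0.58 ± 0.32 SE), and 0 of 6 had an unadjusted p under 0.05, against 8.35% of all genes. Averaged over the diets, all 6 values were positive and 0 of 6 passed, against 0.103% of all genes (12 of 11634). Of the 6, 3 were higher at an unadjusted p under 0.05, against 7.18% of all genes. The lowest adjusted p was that of Cyp4a14, at 0.16 (0.60 ± 0.14 SE), followed by Cyp4a10 at 0.28 (0.63 ± 0.22 SE) and Cyp4a31 at 0.34 (0.41 ± 0.16 SE).

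Genes that work with or beside the Cyp4a enzymes were read from lists, and members of the family are left out of the counts. All gene lists here and below were chosen with earlier results of these data known. Their counts are therefore descriptions and no test of the list. Of 15 tested omega-oxidation partners and other Cyp4 genes, 3 rose on HFD averaged over the genotypes, against 5.04% of all genes. None fell, against 4.86% of all genes. They were Aldh3a2, the fatty aldehyde dehydrogenase that follows the alcohol step (log2 fold change 0.63 ± 0.07 SE, adjusted p = 0.0061), Adh4, an alcohol dehydrogenase (0.37 ± 0.07 SE, adjusted p = 0.029), and Cyb5a, the cytochrome b5 that can pass electrons to P450 enzymes (0.36 ± 0.07 SE, adjusted p = 0.023). The list as a whole was centred near 0 (median -0.00, with 0.011 for all genes). Por, the reductase that supplies P450 enzymes with electrons, read 140 ± 13.1 FPKM in LKO and 222 ± 13.6 FPKM in f/f on HFD (-0.63 ± 0.15 SE, adjusted p = 0.27), a value opposite in sign to those of the Cyp4a genes. Aldh3a2 had 0.57 ± 0.10 SE in that comparison (adjusted p = 0.18), the same sign as theirs. Cyp4f16, a lowly expressed relative, had 0.35 ± 0.17 SE for genotype on HFD (adjusted p = 0.58). In that comparison 0 of the 15 passed, against 0.043% of all genes, with 2 higher and 2 lower at an unadjusted p under 0.05. Of all genes, 5.46% were higher at that level, and 1114 of 11634 reached it in either direction.

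Of 13 genes for peroxisomal handling of the acids, 2 rose on HFD and 0 fell, against 5.04% and 4.86% of all genes. Abcd2, a peroxisomal transporter of fatty acyl-CoA, went from 0.626 ± 0.363 FPKM in f/f on CD to 3.62 ± 0.473 in f/f on HFD and 6.96 ± 1.71 in LKO on HFD (averaged diet value 1.57 ± 0.15 SE, adjusted p = 0.0043). Hsd17b4, the peroxisomal bifunctional protein, rose by 0.23 ± 0.06 SE (adjusted p = 0.049). Scp2, a peroxisomal lipid carrier, had 0.26 ± 0.07 SE (adjusted p = 0.077), Crot, a carnitine octanoyltransferase, 0.24 ± 0.07 SE (adjusted p = 0.078), and the bifunctional enzyme Ehhadh -0.01 ± 0.20 SE (adjusted p = 0.98). For genotype on HFD, 12 of the 13 values were positive, with a median of 0.34, and 0 passed, against 0.043% of all genes. At an unadjusted p under 0.05, 8 were higher, against 5.46% of all genes. Abcd2 had 0.78 ± 0.21 SE (adjusted p = 0.33), Ehhadh 0.77 ± 0.28 SE (adjusted p = 0.45) and Acaa1b, a peroxisomal thiolase, 0.68 ± 0.21 SE (adjusted p = 0.37).

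Among 27 other PPARα targets, 9 rose on HFD averaged over the genotypes, against 5.04% of all genes, and 0 fell, against 4.86%. The median was 0.16. This list shares genes with the peroxisomal list, among them Ehhadh and Acaa1b, and shares Aldh3a2 with the omega-oxidation list. The counts of these lists are therefore not separate. Vnn1, a pantetheinase, rose most (1.16 ± 0.12 SE, adjusted p = 0.0049). Next were Cd36, a fatty acid transporter (0.89 ± 0.20 SE, adjusted p = 0.037), and Cpt1b, a carnitine palmitoyltransferase (0.84 ± 0.20 SE, adjusted p = 0.0497), of which Cpt1b was at 0.851 to 5.12 FPKM in the group means. Genes of mitochondrial fatty acid oxidation made up the rest, with Acadm at 0.64, Etfdh at 0.48, Acadl at 0.43, Hadhb at 0.31 and Hadha at 0.26, besides Aldh3a2. All of these were below the 2.50 of Cyp4a14. Cyp4a31 and Cyp4a32, at -0.45 and -0.33, lay near the lower end of the list.

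For genotype on HFD, 25 of the 27 PPARα targets had positive values, the median was 0.32, and 0 passed, against 0.043% of all genes. At an unadjusted p under 0.05, 17 were higher, against 5.46% of all genes. Cidec, a lipid droplet protein, had 1.70 ± 0.26 SE (adjusted p = 0.14), Cd36 1.48 ± 0.28 SE (adjusted p = 0.21), Cpt1b 1.09 ± 0.29 SE (adjusted p = 0.32) and Vnn1 1.00 ± 0.16 SE (adjusted p = 0.15). The 1.00 of Cyp4a10 stands beside these. The paper treats Cd36 as a target of the related receptor PPARγ and barely detected PPARα at its promoter. The list thus cannot tell targets of PPARα from those of PPARγ. Of 12 receptors and coactivators, 3 rose on HFD and 0 fell, against 5.04% and 4.86% of all genes. They were Rxra, the partner receptor of the PPARs (0.27 ± 0.04 SE, adjusted p = 0.015), Hnf4a (0.28 ± 0.07 SE, adjusted p = 0.048) and Pparg (0.25 ± 0.06 SE, adjusted p = 0.047). Ppara itself was -0.17 ± 0.10 SE on HFD (adjusted p = 0.30) and 0.17 ± 0.13 SE for LKO on HFD (adjusted p = 0.74). Pparg had the largest value of the list for LKO on HFD (0.42 ± 0.08 SE, adjusted p = 0.23), and Rxrb, another partner receptor, had -0.23 ± 0.15 SE (adjusted p = 0.66).

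Cyp4a12a and Cyp4a12b were set beside other genes that livers of male mice express above those of females, a list also chosen with earlier results known. Of 13 further male-biased genes, 7 fell on HFD averaged over the genotypes, against 4.86% of all genes, and 0 rose, against 5.04%. All 13 values were negative, and the median was -0.92, with 0.011 for all genes. Ugt2b38, a glucuronosyltransferase, fell by 2.92 (SE 0.36, adjusted p = 0.0079), from 14.0 ± 7.47 FPKM in f/f on CD to 0.525 ± 0.244 in f/f on HFD. Moxd1 fell by 2.85 (SE 0.38, adjusted p = 0.0094), Selenbp2 by 2.25 (SE 0.28, adjusted p = 0.0084) and Serpina1e, a serum protease inhibitor, by 2.05 (SE 0.24, adjusted p = 0.0068). Cyp7b1, an oxysterol hydroxylase, fell by 1.37 (SE 0.24, adjusted p = 0.02), and Nudt7 by 1.02 and Gstp1 by 0.92. Serpina1e and Ugt2b38 belong to families of close copies, so their separate values are uncertain. For genotype on HFD 0 of the 13 passed, against 0.043% of all genes, and 9 were negative (median -0.42). At an unadjusted p under 0.05, 1 was higher and 4 lower. Of all genes, 5.46% were higher at that level, and 1114 of 11634 reached it in either direction. The 3 largest values in size were those of Hsd3b5, a steroid dehydrogenase, at -1.35 ± 0.18 SE (adjusted p = 0.14), Serpina1e at -1.31 ± 0.34 SE (adjusted p = 0.32) and Elovl3, a fatty acid elongase, at 0.89 ± 0.21 SE (adjusted p = 0.27), whereas Cyp4a12a and Cyp4a12b had 0.05 and 0.23.

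Genes of the liver lobule's zones moved with diet as well. Of 11 pericentral genes, those of hepatocytes around the central vein, 4 rose and 1 fell, against 5.04% and 4.86% of all genes. Cyp2e1, a P450 enzyme of that zone, rose by 0.92 ± 0.07 SE (adjusted p = 0.0031), Glul, Lgr5 and Gulo rose by 0.23 to 0.35, Axin2 had 0.44 ± 0.14 SE (adjusted p = 0.091), and Cyp1a2 fell by 0.73 (SE 0.15, adjusted p = 0.032). Of 12 periportal genes 5 fell and 1 rose, against 4.86% and 5.04% of all genes. Cdh1, Etnppl, Pck1, Sds and Cyp2f2 fell by 0.97, 0.80, 0.67, 0.67 and 0.48, and Hsd17b13 rose by 0.29 ± 0.05 SE (adjusted p = 0.018). For genotype on HFD 0 genes of either zone passed, against 0.043% of all genes. At an unadjusted p under 0.05, 3 pericentral genes were higher and 5 periportal genes lower. Of all genes, 5.46% were higher at that level, and 1114 of 11634 reached it in either direction. The 3 largest values of each list were 0.46 for Lgr5, 0.33 for Cyp2e1 and 0.33 for Rgn (adjusted p of 0.31, 0.36 and 0.42), and -0.69 for Sds, -0.50 for Etnppl and -0.46 for Cps1 (adjusted p of 0.14, 0.49 and 0.31). In whole liver, fewer cells that express a gene and less RNA per cell cannot be told apart. Lists of other cell types stayed low beside the Cyp4a sum, with summed levels of 81.1 to 147 FPKM for macrophages (8 of 10 markers above 1 FPKM), 49.8 to 74.2 for endothelial cells (8 of 8), 40.6 to 97.9 for stellate cells and fibroblasts (9 of 9), 17.9 to 31.5 for cholangiocytes (2 of 6) and 1.29 to 2.64 for lymphocytes (0 of 6). The stellate and fibroblast sum was 40.6 to 64.1 on CD and 71.7 to 97.9 on HFD, and its part in the diet values was not tested. The adipocyte list summed to 836 to 1834 FPKM, nearly all from Car3, which hepatocytes also express, and the defining markers Adipoq, Plin1 and Lep were at most 0.377 FPKM.

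Across the 8 libraries each of the 6 genes was most like 1 other by its pattern, but the pairs were not separate. Between the Cyp4a12 genes and Cyp4a31 or Cyp4a32, r was 0.57 to 0.74. On the normalised log2 scale Pearson's r was 0.90 between Cyp4a14 and Cyp4a10, 0.93 between Cyp4a12a and Cyp4a12b and 0.83 between Cyp4a32 and Cyp4a31, and -0.88 between Cyp4a14 and Cyp4a12a. The libraries share the diet contrast and the close copies share reads, so these values are descriptions over 8 points. Among 9833 other genes above 1 FPKM in all libraries, the most similar to Cyp4a14 was Acat1, a mitochondrial thiolase (r = 0.993), ahead of Acot13, Nfu1, Mapk3 and Acadl (0.987 each). For Cyp4a10 they were Scp2 (0.986), Hadhb (0.985), Coro1b (0.971), Acad11 (0.969) and Decr1 (0.966). For Cyp4a12a they were Slc22a30 (0.990), Slc22a28 (0.985), Ces2a (0.983), Mettl7b (0.978) and Isyna1 (0.974).

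Cyp4a12b was most similar to Gadd45g (0.986), Pdia5 (0.985), Srd5a1, a steroid reductase (0.981), Ddhd2 (0.981) and Kyat3 (0.975). The lower copies had weaker matches, for Cyp4a32 Tut4 (0.955), 2410015M20Rik (0.949), Ccnyl1 (0.947), Atp9b (0.936) and Atg12 (0.934), and for Cyp4a31 Gm15758 (0.958), ENSMUSG00000084156 (0.948), Hdac8 (0.943) and Slc23a2 (0.938). The sizes of change were not alike, since r ignores them. Acat1 ran from 112 to 208 FPKM over the 8 libraries, where Cyp4a14 ran from 139 to 1194.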

How the data were processed

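RNA was sequenced from 8 pooled liver libraries. Per the labels and the study's methods, the authors trimmed reads with cutadapt 1.0, aligned them to GRCm38 with TopHat2 2.0.7 and estimated the deposited FPKM per gene with Cufflinks (version not given in the sources used here). Poly(A) libraries were made with a kit that does not mark strand. Depth is unknown from the deposited FPKM. The members and gene lists were chosen with earlier results of these data known. The fit took genes that exceeded 1 FPKM in some library, and log2(FPKM + 1) was quantile normalised. All 4 groups were fitted together with limma 3.58.1 in R 4.3.3 (mean-variance trend, 4 residual and 2.8 prior degrees of freedom), with Benjamini-Hochberg adjustment within each comparison and a threshold of 0.05. The log2(FPKM + 1) scale understates changes of low genes. The study's permutation procedure, which regroups libraries, was not run, and limma took its place. Symbols, positions and coding sequences came from GENCODE M21, which gave a symbol for 36341 of 38283 identifiers; the longest coding transcript of each gene was used, and pairs were aligned globally. Named genes were the 6 members, the genes between them, list genes past the threshold in any comparison or among the 3 with the largest absolute value for genotype on HFD or for diet, and the 5 genes most like each member. Some genes are not reported here and were left out of the lists. Only the limma step was tested on simulated data, for genotype on HFD. Alternatives were no normalisation, median centring, a filter of FPKM above 1 in all libraries or above 0 in any, a pseudocount of 0.1, no trend, the replicate block, only the libraries compared, each library left out and sums of close copies. Labels do not say that same-numbered libraries are related.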

Additional observations from a re-analysis of the deposited data

How the results depend on the processing

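The 0 calls for genotype on HFD, on CD, averaged over diets and for the interaction were 0 under all alternatives run. For diet averaged over genotypes, 4 genes passed, and 2 to 5 with a library left out. For HFD in f/f the count of 1 was 2 with no normalisation, 2 with median centring, 2 with a pseudocount of 0.1, 3 with FPKM above 1 in all libraries, 0 with only the libraries compared, and 0 to 2 with a library left out. For HFD in LKO the count of 2 was 3 with a pseudocount of 0.1, 4 with FPKM above 1 in all libraries, 1 with FPKM above 0 in any library, 0 with only the libraries compared, and 0 to 2 with a library left out. Fits with only the libraries compared or with a library left out had fewer libraries. The filter of FPKM above 1 in all libraries kept fewer genes, and that of FPKM above 0 in any library kept more. The cause of these changes in count was not tested. With FPKM above 0 in any library, Cyp4a10 lost its averaged diet call (adjusted p = 0.066).

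With libraries left out, some log2 values changed sign, none of them called. For genotype on HFD, Cyp4a12a ranged from -0.268 to 0.366 and Cyp4a12b from -0.0341 to 0.493. For genotype on CD, Cyp4a10 ranged from -0.264 to 0.795, Cyp4a12a from -0.161 to 0.419, Cyp4a12b from -0.451 to 0.595, Cyp4a32 from -0.184 to 0.786 and Cyp4a31 from -0.275 to 0.504. For the interaction, Cyp4a14 ranged from -0.144 to 0.47, Cyp4a12a from -0.395 to 0.24, Cyp4a12b from -0.366 to 0.68 and Cyp4a32 from -0.41 to 0.559. The interaction of the summed Cyp4a12 genes was 0.038, where Cyp4a12a alone had -0.08. For HFD in LKO, Cyp4a32 ranged from -0.775 to 0.196 and Cyp4a31 from -0.543 to 0.236. For genotype averaged over diets, Cyp4a12a ranged from -0.0706 to 0.246 and Cyp4a12b from -0.111 to 0.412.

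With a block for the replicate number, 3 genes passed for HFD in LKO, where Cyp4a10 was gained (adjusted p = 0.044), and no other call changed. Correlations of the deviations of same-numbered libraries over all genes were -0.00371 to 0.149, which shows no pairing over all genes but cannot exclude it for single genes. The second library read above the first in all 4 groups for Cyp4a10 (1.15 to 2.04 times) and Cyp4a32 (1.08 to 2.05 times). The depth of the libraries was not used here, and 2 pools a group limit what the tests can show.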
